A study of Rattus norvegicus with 743 samples.

Results

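Alpidem and zolpidem are imidazopyridine drugs that were each given to rats for 4 days in a toxicogenomic series of liver RNA sequencing. The libraries were chosen by their treatment label: 4 libraries from alpidem-treated rats and 3 from zolpidem-treated rats, which makes 7 of the 743 libraries of the series. Each was set against the 4 vehicle-treated rats that shared its study, batch number and vehicle label, so 15 animals with 1 library each were used. All were male Han Wistar rats, dosed daily and killed the day after the last dose. Alpidem was given at 600 mg/kg/day in 60% (w/w) polyethylene glycol 400 made up in 0.9% sodium chloride. Zolpidem was given at 500 mg/kg/day in 0.5% (w/v) methylcellulose in water. Age and route of dosing are not given in the labels used here. Because dose, vehicle and study all differ between the compounds, each effect was measured against its own vehicle group, and the values are set side by side with no test between the compounds.

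Both compounds bind the benzodiazepine site of the GABA-A receptor, and alpidem also binds TSPO, the translocator protein of the outer mitochondrial membrane. They share the imidazopyridine core with an acetamide side chain. Alpidem carries chlorine atoms where zolpidem carries methyl groups, and a dipropyl amide where zolpidem has a dimethyl amide. Alpidem was sold against anxiety and was withdrawn after cases of liver injury, whereas zolpidem remains in use as a sleeping drug. In the liver, foreign compounds are sensed by a few receptors with known target genes: AhR drives CYP1A enzymes, CAR drives CYP2B enzymes, PXR drives CYP3A enzymes, and NRF2 drives glutathione and antioxidant genes after electrophile or oxidative stress.

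Levels are given as CPM, counts scaled to a fixed library size and adjusted by the trimmed mean of M values within each comparison, and changes as log2 fold changes with standard errors from edgeR's quasi-likelihood test with Benjamini-Hochberg adjustment over all genes tested; a gene passed at an adjusted p of at most 0.05. Library totals ran from 21.2 to 38.5 M (mega) counts. Hepatocyte markers dominated every library, and Alb alone stood at 71930 CPM or more, whereas exocrine pancreas markers summed to at most 0.815 CPM. In the alpidem study, other measures separated the groups as well. The RNA integrity number (RIN) was 8.0 to 8.3 in treated rats against 7.0 to 7.8 in vehicle rats (exact permutation test, 2-sided p = 0.0286, the smallest that 4 against 4 animals can give; 0.0898 adjusted over 22 such tests). Library totals were 21.2 to 24.0 M against 25.6 to 38.5 M counts (same exact p). Furthermore, 3 of the 4 vehicle animals were sequenced on another flow cell, while the fourth shared the flow cell of all 4 treated rats. In the zolpidem study, all 7 libraries came from 1 flow cell, and RIN overlapped (7.4 to 7.9 treated, 7.3 to 8.2 vehicle).

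Alpidem changed a broad set of liver genes, with enzymes and transporters of drug metabolism among the largest increases. Of 12854 genes tested, 1550 (12.1%) passed, of which 880 (6.85%) rose and 670 (5.21%) fell. Among these, 248 rose and 145 fell at least 2-fold, a log2 fold change of 1 or more, and 68 rose and 15 fell by at least 2 on the log2 scale. At an unadjusted p below 0.05 there were 3773 genes. The median log2 fold change over all genes tested was 0.002, a value that the scaling itself centres near 0. Of the 119 genes that passed after alpidem and met the rule for named genes, 64 passed in each of the 8 fits that left out 1 animal; for those described below that did not, the number of fits is given. Tkt, Ftl1, Cyp2c13, Cyp2t1, Atf4, Mcm7, Fas and Mx1 lie outside that rule and are named after their values were seen, to complete small counts, without such fits.

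Of the AhR targets, Cyp1a1, the P450 that serves as the classic marker of this receptor, stood at 154, 34.1, 66.9 and 254 CPM in the 4 alpidem-treated rats. The 4 vehicle rats stood at 0.842, 1.21, 1.34 and 0.872 CPM. Every treated animal lay above every vehicle animal, with the lowest treated rat more than an order of magnitude above the highest vehicle rat, and the log2 fold change was 6.87 ± 0.79 (SE; edgeR adjusted p = 0.00447). Ugt1a6, which glucuronidates small phenols, was at 364, 94.2, 125 and 365 CPM against 8.80 to 15.2 CPM in vehicle rats. As for Cyp1a1, alpidem animals 1 and 4 stood above animals 2 and 3 (log2 fold change 4.30 ± 0.54, adjusted p = 0.00544). Ugt1a7c, a transcript of the same locus with shared exons, rose by 2.88 ± 0.54, but passed in only 4 of the 8 fits, failing without alpidem animal 1 or without vehicle animal 1, 3 or 4. In all, 3 of the 6 tested AhR targets rose and none fell, with a median of 1.95. Cyp1a2, the other CYP1A enzyme of liver, did not pass and was at 706 to 1125 CPM in treated rats against 800.2 to 1490 CPM in vehicle rats (log2 fold change -0.48 ± 0.21, adjusted p = 0.148). Tiparp, another target, was at 0.03, and Nqo1 was at 191 CPM in alpidem animal 1 but at 13.0 to 36.7 CPM in the other 3, against 17.0 to 49.0 CPM in the vehicle rats.

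The promoters of some genes that rose with Cyp1a1 are shown, chosen because the short core recognised by AhR, GCGTG, can be read in them. Sequences are from RefSeq (build GRCr8), 5′ to 3′ on the strand of the gene, with the motif in capitals on whichever strand it lies.
Ugt1a6, chr9:96194858-96194917, plus strand, bases 160 to 101 before the start: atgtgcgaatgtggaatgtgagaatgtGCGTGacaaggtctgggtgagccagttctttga
Ugt1a7c, chr9:96187282-96187341, plus strand, bases 100 to 41 before the start: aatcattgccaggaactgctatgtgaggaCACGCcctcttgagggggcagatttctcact
Akr7a3, chr5:156876631-156876690, plus strand, bases 90 to 31 before the start: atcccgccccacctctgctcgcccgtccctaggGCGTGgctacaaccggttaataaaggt
In the 250 bases before the start, GCGTG on either strand was found in 6 of the 7 AhR targets matched in the table, all but Cyp1a2. Cyp1a1 and Aldh3a1 were not matched. Among the targets with GCGTG, Ugt1a6 and Ugt1a7c, transcripts of the same locus, rose after alpidem, whereas Tiparp and Nqo1 did not pass. Ahrr and Cyp1b1 also held it but were not among the genes tested. The same letters were found in 25.9% of all 33469 promoters and in 15 of 29 promoters of the NRF2 list, to which Akr7a3 belongs. A match describes these letters and is not a measured binding site.

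Of the 15 CAR targets tested, 8 rose and none fell, with a median log2 fold change of 1.47. Cyp2b1, the major phenobarbital-inducible P450 of rat liver, was at 5269, 2524, 2282 and 1724 CPM after alpidem against 364 to 736.5 CPM in vehicle rats (2.52 ± 0.38, adjusted p = 0.00684). Cyp2b2, its close copy, was at 3639 CPM in alpidem animal 1 and at 1174 to 1344 CPM in the others, against 150.2 to 344 CPM (2.99 ± 0.48, adjusted p = 0.0102). Both groups of values separated fully, and alpidem animal 1 was the highest for both genes. The remaining CAR targets that rose were the epoxide hydrolase Ephx1 (2.40), the efflux transporter Abcc3 (4.20), the aldehyde dehydrogenase Aldh1a1 (1.77), the glutathione transferase Gsta3 (4.25), the carboxylesterase Ces2 (3.08) and Cyp2c6v1 (1.34). Abcc3, which exports glucuronides into blood, was at 121, 61.7, 45.7 and 76.0 CPM against 1.99 to 7.58 CPM.

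The proximal promoters of Cyp2b1 and Cyp2b2 are shown because these genes are close copies. How reads were divided between the copies was not tested, so their separate values are less certain.
Cyp2b1, chr1:90645994-90646053, plus strand, bases 125 to 66 before the start: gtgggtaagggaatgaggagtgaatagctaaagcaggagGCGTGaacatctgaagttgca
Cyp2b2, chr1:90722139-90722198, plus strand, bases 142 to 83 before the start: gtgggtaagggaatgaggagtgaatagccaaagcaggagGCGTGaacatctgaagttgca
These stretches are identical at 59 of 60 bases. The capitals again mark GCGTG, which here lies in promoters of genes on the CAR list.

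Among the PXR targets, 4 of 11 rose and none fell, with a median of 0.69. Cyp3a23/3a1, the main inducible CYP3A of rat liver, reached 27760, 17950, 15130 and 22400 CPM after alpidem against 2706 to 4650 CPM in vehicle rats (2.48 ± 0.23, adjusted p = 0.000459). All 4 treated rats stood far above the 4 vehicle rats. Cyp2c24 was at 344, 211, 101 and 352 CPM against 1.14 to 8.80 CPM (5.78 ± 0.72, adjusted p = 0.00566). Over the genes named as CYP1, CYP2 or CYP3, 7 of 30 rose and 3 fell, the latter being Cyp2e1, Cyp2c13 and Cyp2t1, and the median was -0.15. The rise was therefore carried by few members of these families. Cyp2c12, a P450 that is typical of female rats, rose from 26.0 to 38.5 CPM in vehicle rats to 136 to 261 CPM (2.66 ± 0.24, edgeR adjusted p = 0.000737). The male-typical Cyp2c11 was at 196 to 800 CPM against 887 to 2104 CPM and did not pass (-1.61 ± 0.44, edgeR adjusted p = 0.0512, and 0.00396 by DESeq2). Their lists moved little. Of 5 female-predominant genes tested, 1 rose and none fell (median 0.32), with 3 above 0, and DESeq2 called 1 higher and 2 lower. Of 7 male-predominant genes tested, 1 fell and none rose (median -0.18), with 2 above 0. Over all genes, 6.85% rose and 5.21% fell.

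Several families of conjugating and hydrolysing enzymes rose in part. Of the glucuronosyltransferase genes, 8 of 12 rose and none fell (median 0.90), among them Ugt1a6 and Ugt2b10 (2.62 ± 0.37, adjusted p = 0.00523). Of the glutathione transferase genes, 8 of 23 rose and none fell (median 0.83), led by Gsta3, Gsta5 (2.97), Gsta2 (2.33) and Gstm1 (2.04). Gsta5 was at 2789, 976, 1016 and 1887 CPM against 200.5 to 227 CPM, so that alpidem animals 1 and 4 again stood highest. Of the carboxylesterase genes, 7 of 10 rose and none fell (median 1.08), and all 7 were of the CES2 class, which hydrolyses esters and amides. Ces2a was at 738, 650.5, 674 and 845 CPM against 35.2 to 98.6 CPM (3.64 ± 0.34, adjusted p = 0.000954), and these 4 treated rats lay closer together than for the AhR genes. The members of each family are similar in sequence, so values of single members are less certain than the family counts.

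The NRF2 list rose in part. Of 31 targets tested, 10 rose and none fell (median 0.60), and 24 were above 0. At an unadjusted p below 0.05 there were 17, beside 3773 of all 12854 genes, and DESeq2 called 12 higher and 2 lower. The genes that rose included Gsta2, Gsta3, Gsta5, Gstm1, Ephx1 and Abcc3, which lists described above also hold. The others were Akr7a3, Gpx2, Tkt and Ftl1. Akr7a3, an aflatoxin aldehyde reductase, was at 1076, 192, 176 and 766 CPM against 27.1 to 45.4 CPM (3.88 ± 0.69, adjusted p = 0.0167; 0.0518 without vehicle animal 3). Gpx2, a glutathione peroxidase usually restricted to gut epithelium, was at 36.9, 6.87, 0.456 and 4.79 CPM against 0.178 to 0.295 CPM. Treated rats differed widely, animal 3 being only a little above the vehicle rats, and the call (5.83 ± 1.43, adjusted p = 0.0451) was kept in 2 of the 8 fits, those without alpidem animal 1 or 3. Several textbook NRF2 genes did not pass: Gclc, the rate-limiting enzyme of glutathione synthesis, was at 0.46 ± 0.30, Txnrd1 was at -0.23, Srxn1 at 0.76 and Hmox1 at -0.59. The Gpx2 promoter is shown because it holds the antioxidant response core TGACNNNGC (in capitals, lying on the opposite strand), a match found in 10.1% of all promoters and in 9 of 29 promoters of the 26 NRF2 genes matched in the table.
Gpx2, chr6:101230034-101230093, minus strand, bases 60 to 1 before the start: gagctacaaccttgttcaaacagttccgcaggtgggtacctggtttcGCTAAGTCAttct

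Other large increases fell outside these lists. Slc16a5, a monocarboxylate transporter, was at 8.87, 3.05, 4.90 and 9.27 CPM after alpidem and at 0 to 0.0759 CPM in vehicle rats (7.13 ± 0.59, adjusted p = 0.000408). Grin2c, a subunit of the NMDA glutamate receptor, was at 30.2, 6.06, 2.03 and 14.5 CPM against 0.0298 to 0.303 CPM (6.24 ± 1.09, adjusted p = 0.0156). Both were close to absent in vehicle liver. Each treated rat lay above each vehicle rat, which the rule that named these 2 genes required. Over all genes tested, 20% separated the groups in either direction. Genes of serine and asparagine synthesis also rose: Phgdh by 4.05, Psat1 by 2.38 and Asns by 2.49. These belong to a list of 22 ATF4 stress genes tested, of which 4 rose (with Pck2) and 3 fell (Gdf15, Atf4 and Atf5, the last kept in 1 of the 8 fits), with a median of 0.42. Phgdh passed in 3 of the 8 fits, losing its call without alpidem animal 1 or without any 1 of the vehicle rats. Gdf15, a stress-induced hormone, was at 0.629 to 1.14 CPM against 1.52 to 3.96 CPM (-1.39 ± 0.36, adjusted p = 0.034), a call kept in 3 of the 8 fits, those without vehicle animal 1, 2 or 4.

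Cell cycle transcripts were higher after alpidem. Of 29 proliferation genes tested, 14 rose and 1 (Mcm7, by -0.58) fell, with a median of 1.14. Thymidine kinase Tk1 was at 23.1, 24.2, 21.0 and 29.4 CPM against 5.39 to 9.22 CPM (1.66 ± 0.17, adjusted p = 0.000618), with no overlap. Cdk1, the kinase that starts mitosis, was at 2.90 to 5.30 CPM against 0.800 to 1.29 CPM (1.78 ± 0.26, adjusted p = 0.0032). Mki67 was at 7.66 to 15.6 CPM against 2.57 to 5.92 CPM (1.30 ± 0.28, adjusted p = 0.0189; 0.056 without vehicle animal 3). Of the MCM helicase genes on the list, Mcm2 to Mcm6 did not pass, at 0.22, -0.08, 0.14, 0.85 and 0.64. The p53 targets showed 1 rise (Fas) among 13 tested, where 6.85% of all genes rose. Their median was 0.05, and Cdkn1a was at 0.27 ± 0.61.

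**Figure D1:**
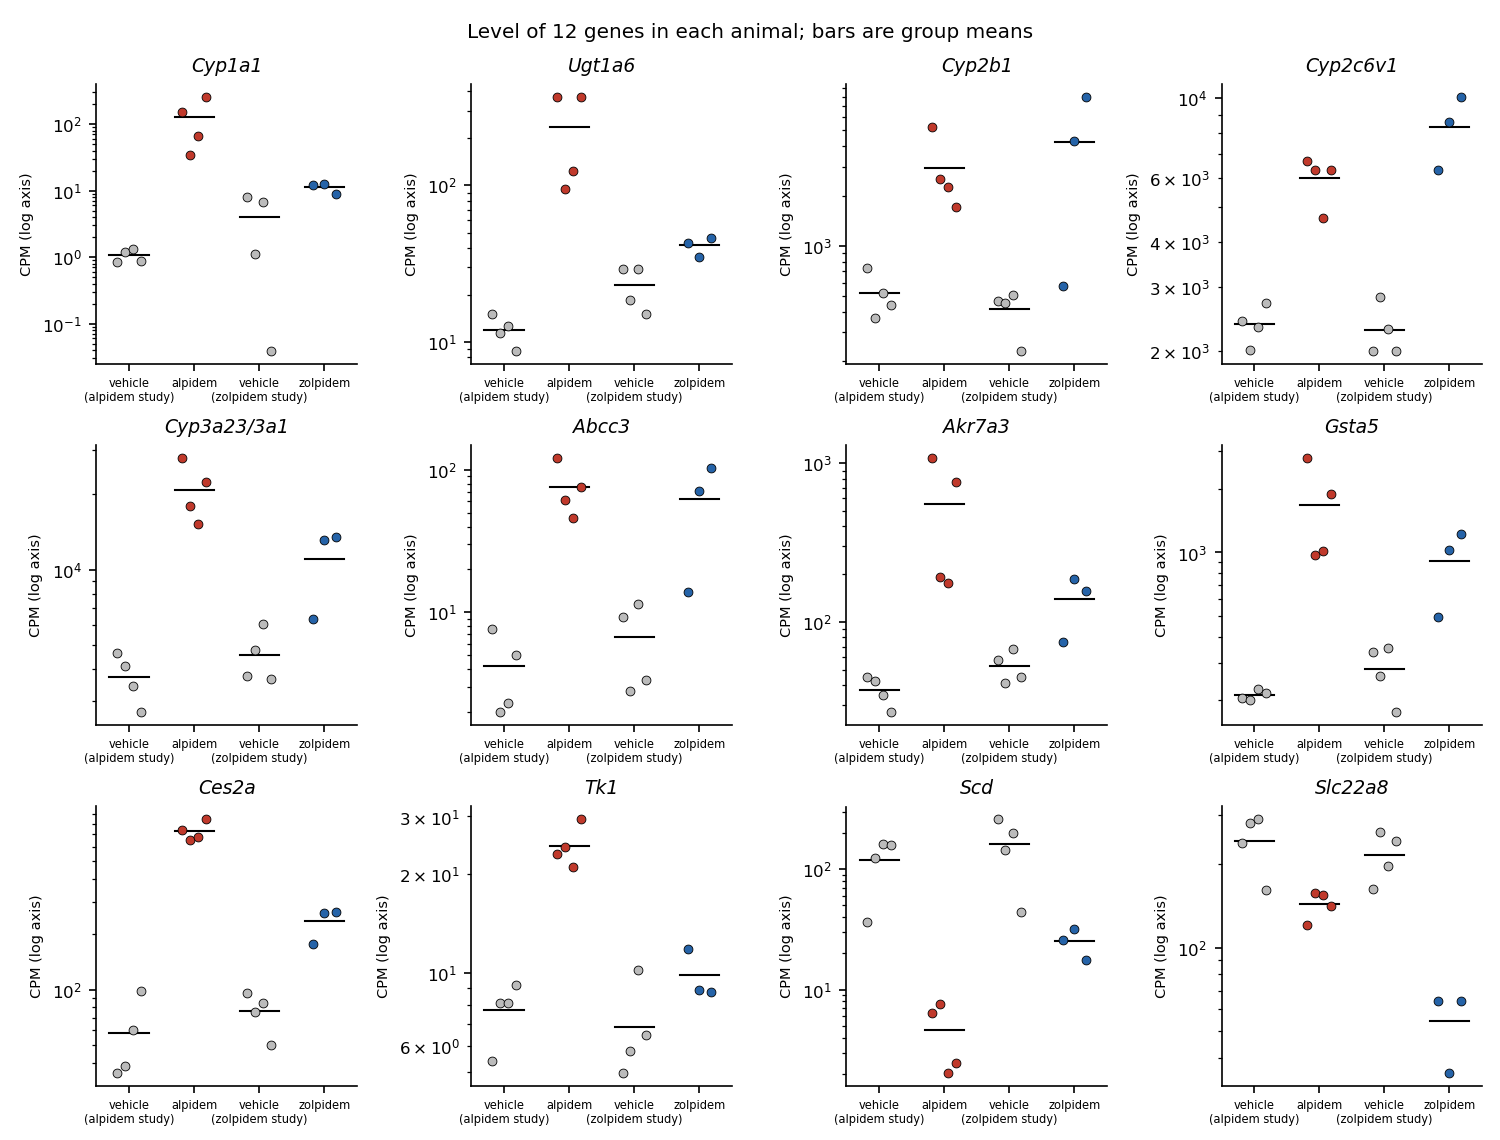
Level of 12 genes in each animal, in CPM on a log axis; each point is 1 rat, bars are group means, and grey points are the vehicle rats of each study. Cyp1a1 stood at 34.1 to 254 CPM after alpidem and at 8.93 to 12.6 CPM after zolpidem, Cyp2c6v1 was high after both, and zolpidem animal 1 was near its vehicle rats for Cyp2b1.

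Single lipid genes fell after alpidem, while most members of the lipid lists did not pass. Scd, the stearoyl-CoA desaturase that makes oleate, was at 6.45, 7.64, 2.03 and 2.45 CPM against 36.3, 124, 162 and 158 CPM (-4.70 ± 0.67, adjusted p = 0.00908). Each treated rat lay below each vehicle rat, and vehicle animal 1 was the lowest of its group. Of the 16 fatty acid synthesis genes tested, Scd was the 1 that fell, while Acacb, Elovl6 and Fads1 rose, each with a call kept in 3 of the 8 fits, and Fasn was at -0.48 and did not pass. Stac3, known mainly from muscle and not on the lipid lists, was at 0.0383 to 0.208 CPM against 7.83 to 46.5 CPM (-7.34, edgeR adjusted p = 0.00995). Apoc3, an apolipoprotein of triglyceride-rich particles, fell from between 1989 and 2749 CPM to between 499 and 841 CPM (-1.67 ± 0.18, adjusted p = 0.000764). Of 30 PPARalpha targets 1 rose and 1 fell (median -0.07), and of 25 cholesterol synthesis genes 1 rose and 1 fell (median -0.03). Over all genes tested, 6.85% rose and 5.21% fell.

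Abundant products of hepatocytes fell. Of 15 hepatocyte markers, 8 fell and none rose, with a median of -0.55. Alb was at 71930, 95640, 93200 and 72060 CPM against 140100 to 158300 CPM (-0.85 ± 0.14, adjusted p = 0.00614). Cyp2e1, an ethanol- and acetaminophen-oxidising P450 of the pericentral zone, was at 2013 to 3180 CPM against 6279 to 9295 CPM (-1.53 ± 0.19, adjusted p = 0.00158), and Serpina1 fell by 0.93 on the log2 scale. Of the markers that did not pass, Apoa1 was at 0.62, with all treated rats above all vehicle rats, Apob at 0.02 and Tf at 0.15. Acute phase proteins showed 7 falls and no rise among 18 tested (median -0.51), led by Itih3, a hyaluronan-binding plasma protein at 1969 to 2481 CPM against 4110 to 5112 CPM (adjusted p = 0.00158), and the fibrinogen chains Fga, Fgb and Fgg were at -0.58, -0.61 and -0.58 with calls that 1, 4 and 3 of the 8 fits kept. Heat shock genes showed 4 falls and no rise among 11 (median -0.60): Hspa4l at -1.56, and Hspa8, Dnaja1 and Dnajb1 at -1.15, -0.68 and -0.60, the last 3 with calls kept in 2 of the 8 fits each. Summed over the 15 hepatocyte markers, treated rats were at 127300 to 162700 CPM and vehicle rats at 223700 to 230700 CPM. Alb made up much of these sums, so they largely follow that gene.

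Of the bile acid genes, there were 4 falls and 1 rise among 15 (median -0.47). Slc27a5, which activates bile acids for conjugation, was at 284, 412, 378 and 241 CPM against 708 to 773 CPM (-1.15 ± 0.16, adjusted p = 0.00313), and Cyp7b1 fell by 0.93 on the log2 scale. Nr0b2, the repressor of bile acid synthesis known as SHP, was at -1.51 ± 0.39, a call that none of the 8 fits kept, and Cyp7a1, the rate-limiting enzyme, was at 22.9 to 30.5 CPM among widely spread vehicle rats (14.2 to 196 CPM). Immediate early genes showed 4 falls and no rise among 11 (median -1.12). Egr1 was at 2.02, 6.51, 2.86 and 2.76 CPM against 28.5 to 51.7 CPM (-3.61 ± 0.38, adjusted p = 0.00206), and Dusp1 was at 39.0 to 89.2 CPM against 179 to 261 CPM (-1.80 ± 0.26, adjusted p = 0.00488). Whether RIN or flow cell had a part in these falls was not tested gene by gene beyond the fits given below.

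Markers of macrophages and of stellate cells fell in part. Of 12 macrophage markers, 8 fell and none rose (median -0.66). Clec4f, a lectin of Kupffer cells, was at 74.1, 79.3, 88.9 and 77.7 CPM against 144 to 204 CPM (-1.01 ± 0.13, adjusted p = 0.0017), and Adgre1 fell by 0.77 on the log2 scale. Of 12 stellate and fibroblast markers, 4 fell, among them Lrat, the vitamin A esterifying enzyme of stellate cells (-1.06 ± 0.16, adjusted p = 0.00377). Summed levels were 402 to 539 against 596 to 920 CPM for macrophages, 306 to 388 against 450 to 651 CPM for stellate cells and fibroblasts, and 12.3 to 16.8 against 20.0 to 24.2 CPM for lymphocytes. None of these ranges overlapped, nor did those of hepatocyte and cholangiocyte markers (25.2 to 35.0 against 17.2 to 24.1 CPM), each at the smallest exact p of 0.0286 (0.0898 adjusted over 22 tests); neutrophil, erythroid and endothelial sums overlapped. In bulk tissue, fewer cells of a type and less RNA per cell cannot be told apart, and the part of cell composition in the gene changes was not tested.

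Transcripts of the drugs' own binding partners did not pass. Tspo was at 5.18, 5.39, 7.18 and 7.51 CPM after alpidem and at 5.10 to 7.44 CPM in its vehicle rats (0.08, 95% interval -0.31 to 0.46). After zolpidem it was at 3.20 to 4.78 CPM against 3.27 to 5.59 CPM (-0.37, 95% interval -0.90 to 0.17). Of the 11 tested genes for TSPO and its partners in steroid import, none passed after either compound by edgeR, against 12.1% and 0.0613% of all genes. At these shares, a list of 11 genes would hold few or no calls. By edgeR 3 and 1 of them had an unadjusted p below 0.05, beside 3773 of 12854 and 1047 of 13051 over all genes. DESeq2 called 1 after each compound. None of the 16 GABA-A receptor subunit genes passed the filter on low counts. The receptor genes themselves, Ahr, Nr1i2 (PXR) and Nfe2l2 (NRF2), were at -0.01, 0.09 and -0.15 after alpidem, and Nr1i3 (CAR) was at -0.61 ± 0.20 (adjusted p = 0.068). Of the nuclear receptors tested, Ppara rose (1.11 ± 0.23, adjusted p = 0.0183; 0.0524 without alpidem animal 4), and Hnf4a, a master regulator of hepatocyte genes, was at 402 to 427 CPM against 521 to 642 CPM (-0.48 ± 0.11, adjusted p = 0.0191), a call lost without alpidem animal 4 or vehicle animal 3.

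The alpidem comparison rests on groups that differ in RIN and mostly in flow cell. With flow cell as a covariate, a fit chosen after seeing the data, 364 genes passed, 254 of them among the 1550; 1548 of the 1550 kept their direction, and the median ratio of the fold change to the original was 1.06. In that fit 1 vehicle animal stands for the shared flow cell. Cyp1a1 was then at 7.18 (adjusted p = 0.0799), Cyp2b1 at 2.74 (0.0884), Ces2a at 2.88 (0.00971), Slc16a5 at 6.34 (0.0311), Tk1 at 1.41 (0.0349), Scd at -5.10 (0.0422), Egr1 at -3.60 (0.0294) and Alb at -0.84 (0.074). The 4 vehicle rats of the zolpidem study were sequenced on the flow cell of the alpidem-treated rats and had RIN values of 7.3 to 8.2. They came from another study and received another vehicle, methylcellulose in water. Against them 2181 genes passed by edgeR. Of the 1545 genes tested there, 1027 passed in the same direction, including Cyp1a1 (4.93, adjusted p = 0.0294), Ugt1a6 (3.28, 0.00902) and Alb (-0.86, 0.00455). The vehicle groups of both studies set against each other gave no gene past the threshold by edgeR among 12916 (937 at an unadjusted p below 0.05). With RIN as a covariate no gene passed by edgeR (1864 at an unadjusted p below 0.05), 1543 of 1550 kept their direction, and RIN and treatment cannot be told apart here. The count was 885 without alpidem animal 1, 659 without alpidem animal 4, 994 without vehicle animal 1 and 833 without vehicle animal 3.

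**Figure D2:**
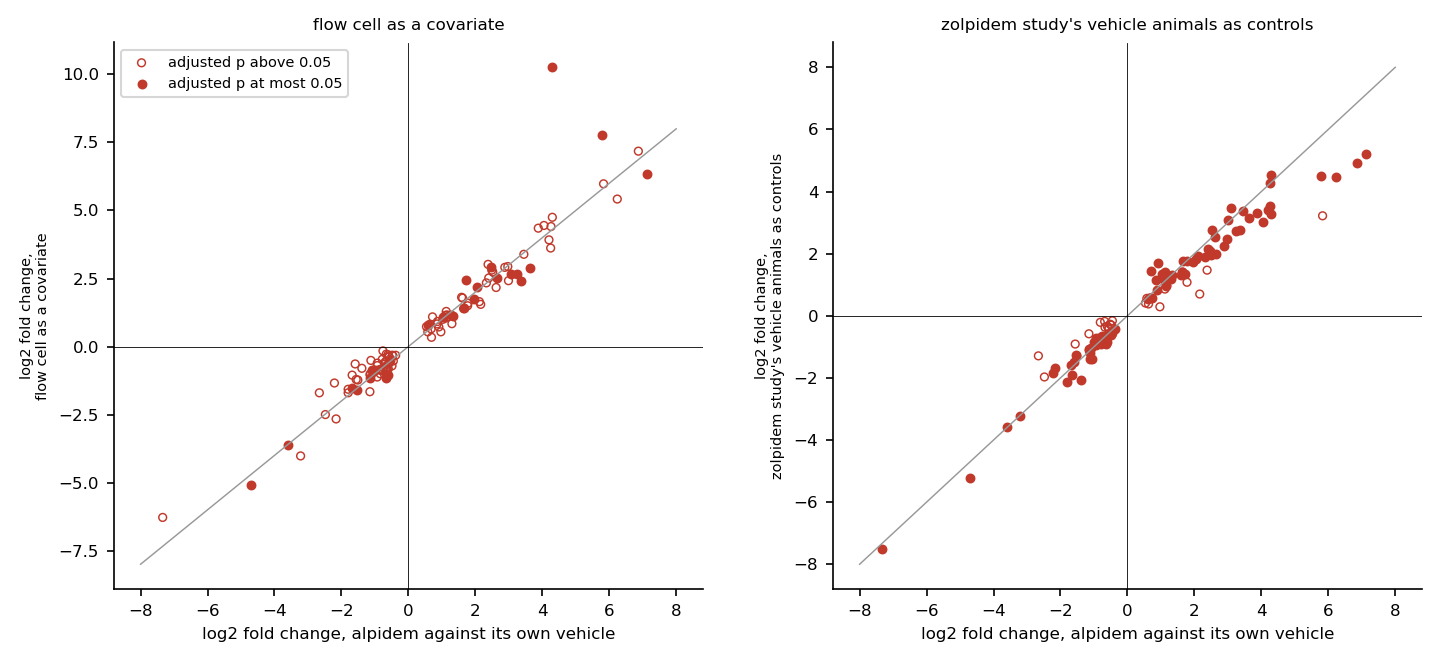
Log2 fold change of the named genes that passed after alpidem (x axis), against the value with flow cell as a covariate (left, y axis) and against the value with the zolpidem study's vehicle rats as controls (right, y axis); each point is a gene, filled where the adjusted p on the y axis is at most 0.05, and the grey line marks equal values. All named genes kept their sign in both panels, while 26 of 119 passed with the covariate and 91 of 118 against the other vehicle rats.

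Zolpidem changed few genes past the threshold. Of 13051 genes tested, 8 (0.0613%) passed, with 6 higher (0.046%) and 2 lower (0.0153%), and 1047 had an unadjusted p below 0.05; DESeq2 called 164. Among the 8 called genes the largest increase was in Cyp2c6v1, a constitutive P450 that phenobarbital also induces, at 6345, 8567 and 10050 CPM after zolpidem against 2002 to 2819 CPM in vehicle rats (log2 fold change 1.87 ± 0.18, adjusted p = 0.017). Fads1, the delta-5 fatty acid desaturase, was at 286, 272 and 254 CPM against 94.2 to 124 CPM (1.31, adjusted p = 0.0141). Ces2j was at 25.3, 33.3 and 31.1 CPM against 9.39 to 14.0 CPM (1.35, adjusted p = 0.0238). In each of the 3 genes every treated rat lay above every vehicle rat.

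There were 5 other calls after zolpidem. Ddc, the aromatic amino acid decarboxylase, was at 39.3, 37.6 and 50.6 CPM against 14.7 to 22.2 CPM (1.15, adjusted p = 0.0496). Fgl1, a fibrinogen-like protein secreted by hepatocytes, was at 719, 696 and 729.5 CPM against 302 to 417 CPM (1.00, adjusted p = 0.0433), and LOC103689965 stood at 1344, 1471 and 1370 CPM against 664 to 782.5 CPM (0.95, adjusted p = 0.0433). The 2 genes that fell are related organic anion transporters: Slc22a8 was at 64.2, 35.3 and 64.0 CPM against 162 to 261 CPM (-1.98, adjusted p = 0.0433), and Ust5r at 76.8, 52.9 and 60.9 CPM against 124 to 169 CPM (-1.25, adjusted p = 0.0433). With 3 treated rats the list is unstable: without zolpidem animal 2 or without vehicle animal 2 no gene passed by edgeR (635 and 915 at an unadjusted p below 0.05), without zolpidem animal 3 there were 4, without vehicle animal 3 there was 1, and without zolpidem animal 1 there were 83.

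CAR targets showed large values after zolpidem that mostly did not pass, and 1 animal lay apart. Cyp2b1 was at 570 CPM in zolpidem animal 1 and at 4307 and 7946 CPM in animals 2 and 3, against 231 to 506 CPM in vehicle rats. The log2 fold change was 3.37 with a 95% interval of 1.48 to 5.26 (edgeR adjusted p = 0.353), and leaving out animal 1 gave 3.89 (adjusted p = 0.012). The fits that left out each other animal gave 2.56 to 3.48 with adjusted p from 0.446 to 0.913, and DESeq2 on all animals gave an adjusted p of 0.00773. Abcc3 followed the same order, at 14.0, 71.1 and 103 CPM against 2.77 to 11.5 CPM (3.23, 95% interval 1.37 to 5.09, adjusted p = 0.371). Akr1b7, an aldose reductase on the CAR list, was at 8.00, 43.8 and 45.0 CPM against 0.0897 to 1.90 CPM (5.19, 95% interval 3.17 to 7.20, adjusted p = 0.196). All 3 genes were higher in every treated rat than in every vehicle rat. Of the 15 CAR targets, 9 separated the groups in this way, where 8.13% of all genes separated in either direction, and the median was 1.67. By edgeR 1 passed (Cyp2c6v1) and 10 had an unadjusted p below 0.05, beside 1047 of all 13051 genes, whereas DESeq2 called 9, all higher. The median shift of the list from the vehicle mean was 0.82 in animal 1, 2.08 in animal 2 and 1.58 in animal 3.

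Of the AhR, PXR and NRF2 targets none passed after zolpidem by edgeR, where 0.0613% of all genes did. Beside the unadjusted counts below, 1047 of all 13051 genes had an unadjusted p below 0.05. All 6 AhR targets were above 0 (median 0.83), with 4 at an unadjusted p below 0.05 and 2 called by DESeq2; Cyp1a1 was at 12.3, 12.6 and 8.93 CPM against vehicle rats that ranged from 0.0388 to 7.92 CPM, and its interval (1.51, -0.87 to 3.88) is wide. The 11 PXR targets had a median of 0.66, with 4 at an unadjusted p below 0.05 and 3 higher by DESeq2. Cyp3a23/3a1 was at 6328, 13090 and 13490 CPM against 3671 to 6048 CPM (1.26, 95% interval 0.63 to 1.89, adjusted p = 0.241 by edgeR and 0.000639 by DESeq2). The 31 NRF2 targets had a median of 0.64, with 17 at an unadjusted p below 0.05 and 7 higher by DESeq2; here animal 3 was highest (list shift 0.97, against 0.12 and 0.56 in animals 1 and 2). Gpx2 was at 0.0398, 1.66 and 19.0 CPM in the 3 rats, across vehicle rats of 0.076 to 4.02 CPM. Of 29 proliferation genes 28 were above 0 and none passed by edgeR or DESeq2 (5 at an unadjusted p below 0.05; median 0.36), and the list shift differed between animals, at 0.78, 0.35 and -0.44. Scd was at 26.0, 31.7 and 17.8 CPM against 44.4 to 260 CPM, below every vehicle rat (-2.69, 95% interval -4.13 to -1.24, adjusted p = 0.336).

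**Figure D3:**
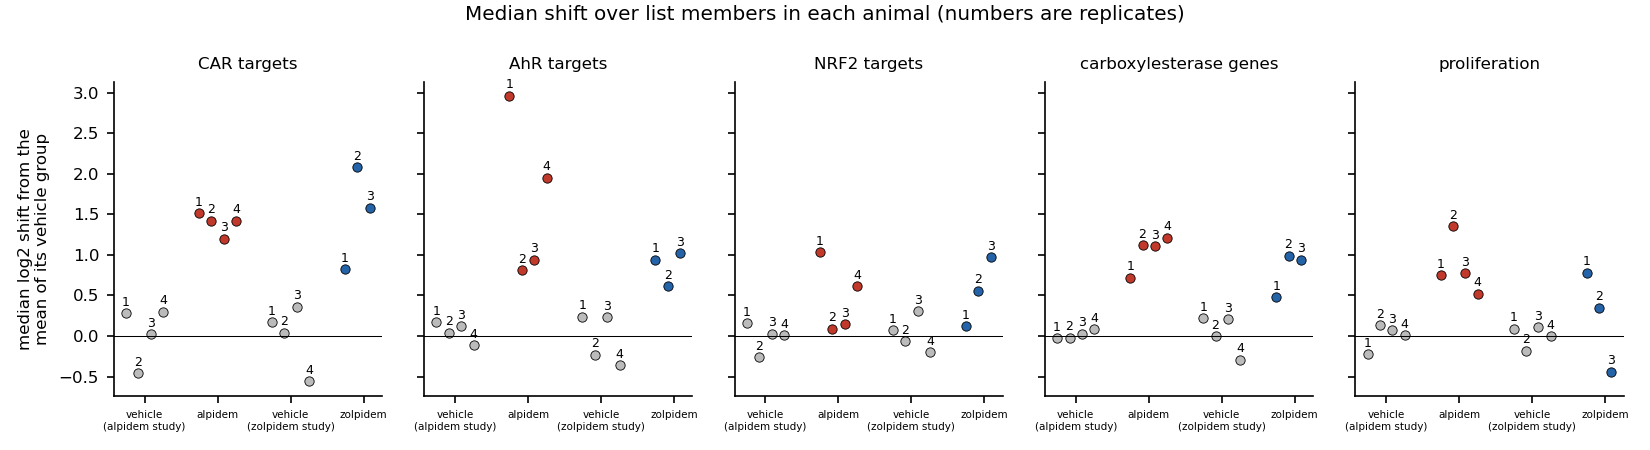
Median log2 shift of the members of 5 gene lists from the mean of their vehicle group (y axis) in each animal; points are rats, labelled by replicate, with vehicle rats in grey. The alpidem-treated rats lay between 1.20 and 1.51 for CAR targets but between 0.81 and 2.96 for AhR targets, and zolpidem animal 1 had the lowest shift of its group for CAR, NRF2 and carboxylesterase genes.

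Among the interferon-responsive genes, all 17 tested were above 0 after zolpidem (median 0.71) and 1 of 17 was above 0 after alpidem (median -0.73). None passed after zolpidem by edgeR or DESeq2 (4 at an unadjusted p below 0.05, beside 1047 of all 13051 genes). After alpidem 1 passed (Mx1, -1.60 ± 0.41, edgeR adjusted p = 0.0333), where 5.21% of all genes fell. Mx1, an antiviral GTPase, was at 2.79, 8.52 and 8.18 CPM after zolpidem against 2.18 to 4.22 CPM, so that animal 1 lay within the vehicle range. Isg15, a ubiquitin-like modifier, stood at 1.63, 8.07 and 8.06 CPM against 3.27 to 4.77 CPM, with animal 1 below and the other 2 above all vehicle rats.

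Alpidem and zolpidem shared few calls, since zolpidem had only 8. Of these, 6 also passed after alpidem in the same direction, which is 75% of the zolpidem calls and 0.387% of the alpidem calls: Cyp2c6v1, Ces2j, Ddc and Fads1 rose and Slc22a8 and Ust5r fell after both. Cyp2c6v1 was at 4658 to 6711 CPM after alpidem (1.34 ± 0.15, adjusted p = 0.00113) beside 6345 to 10050 CPM after zolpidem. Ces2j was at 74.8 to 104.5 CPM after alpidem (3.37 ± 0.43, adjusted p = 0.00544) beside 25.3 to 33.3 CPM. Slc22a8 was at 121 to 157 CPM after alpidem (-0.76 ± 0.18, adjusted p = 0.0227) beside 35.3 to 64.2 CPM. After alpidem, Fads1 (1.16, adjusted p = 0.0411) and Slc22a8 kept their calls in 3 and 5 of the 8 fits that left out an animal. With flow cell as a covariate, Cyp2c6v1, Ces2j and Ddc passed after alpidem, whereas Slc22a8 was at -0.16 (adjusted p = 0.636), Fads1 at 1.16 (0.268) and Ust5r at -0.61 (0.0559). Fgl1 passed after both in opposite directions, at 142 to 200.5 CPM against 301 to 448 CPM after alpidem (-1.13 ± 0.15, adjusted p = 0.00246).

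The vehicle animals of both comparisons are different rats, so their directions can be set beside each other. Of the 855 genes that rose after alpidem and were tested in both, 73.1% were above 0 after zolpidem, with a median of 0.66 after alpidem and 0.16 after zolpidem. For the 223 of these at least 2-fold up, 81.6% were above 0 (medians 1.42 and 0.47); 22% had all zolpidem rats above all vehicle rats, and none had them below. Over all 12696 genes, whatever their alpidem value, 4.46% had all zolpidem rats above all vehicle rats and 3.75% had them below. Of the 670 genes that fell after alpidem, 67.9% were below 0 after zolpidem (medians -0.67 and -0.11), and of the 145 at least 2-fold down, 12.4% separated in the same and 2.76% in the opposite direction. Over all genes tested in both, 58.6% had the same sign. Among xenobiotic lists the medians were 1.95 and 0.83 for AhR targets, 1.47 and 1.67 for CAR targets, 0.69 and 0.66 for PXR targets and 1.08 and 0.76 for carboxylesterases, alpidem first. Immediate early (-1.12 and 0.17), heat shock (-0.60 and 0.05), acute phase (-0.51 and 0.10) and macrophage lists (-0.66 and 0.08) had medians below 0 after alpidem, given first. After zolpidem their medians were close to 0 and no member passed by edgeR, where 0.0613% of all genes did. The alpidem groups also differ in RIN and flow cell, and the differences between the compounds were not tested.

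**Figure D4:**
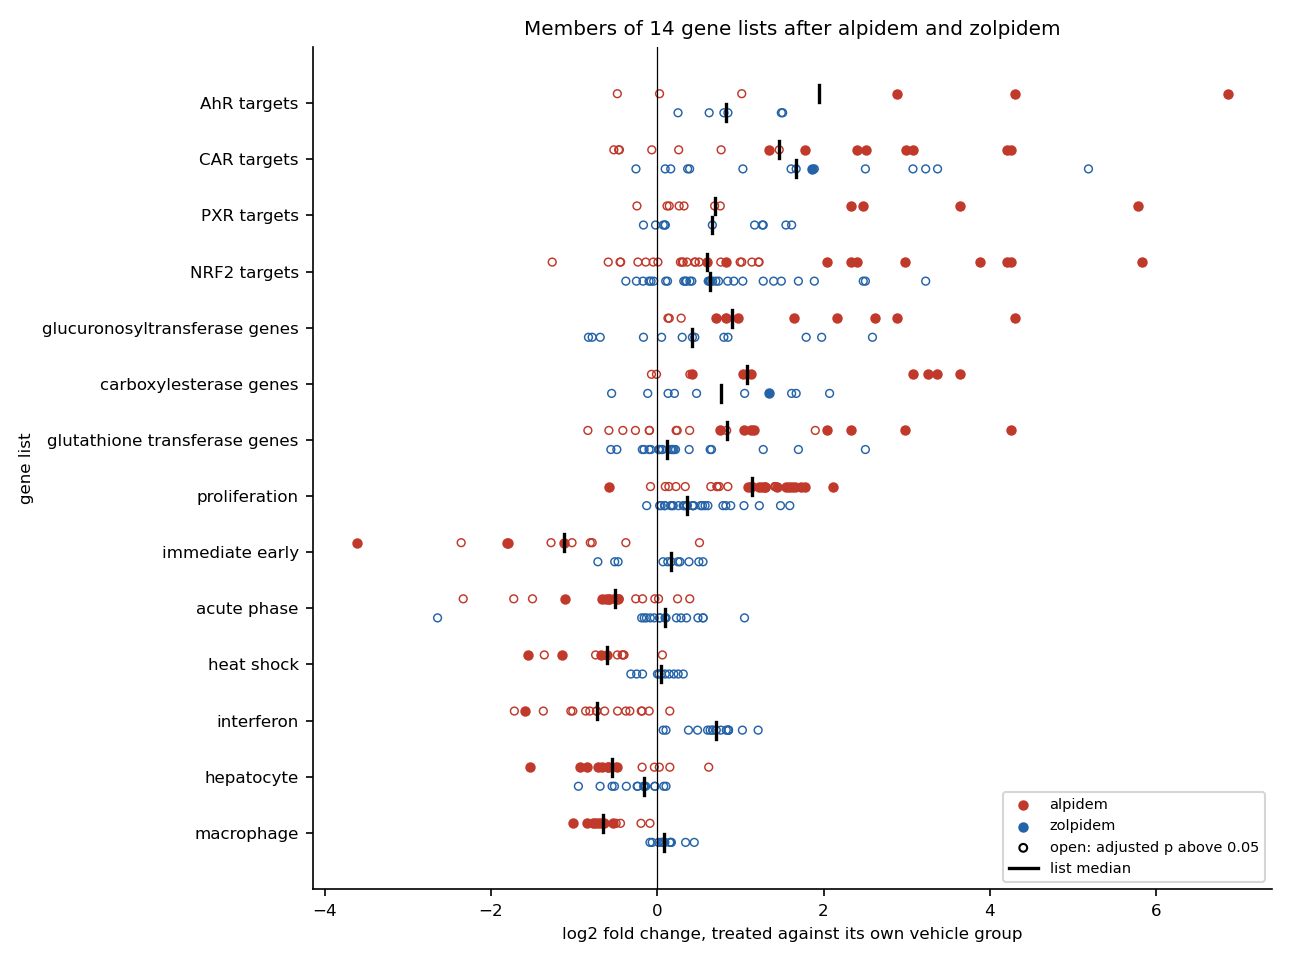
Log2 fold change of each tested member of 14 gene lists after alpidem (red) and zolpidem (blue), each against its own vehicle group; filled points passed at an adjusted p of at most 0.05 and black ticks are list medians. AhR members reach 6.87 after alpidem and 1.51 after zolpidem, whereas CAR medians are 1.47 and 1.67.

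Set among the series, both drugs were compared with the treatments given to male Han Wistar rats for 4 days, which make 48 comparisons of 47 treatments with matched vehicle groups. The measure is the log2 ratio of group mean CPM with 0.5 added, given as a description. For Cyp1a1 alpidem held rank 5 from the highest and zolpidem rank 26, for Ces2a ranks 2 and 15, and for Cyp2b1 ranks 14 and 12. Alpidem had the lowest ratio of the 48 for Hnf4a and rank 2 from the lowest for Scd and Egr1. Zolpidem had the highest ratio for Cyp2c7, a P450 at 3188, 5024 and 3199 CPM against 606 to 1854 CPM in vehicle rats (1.61, 95% interval 0.82 to 2.40, adjusted p = 0.241), and rank 3 from the highest for Gdf15 and LOC103689965. For Gdf15 alpidem had rank 3 from the lowest, and zolpidem-treated rats stood at 10.2, 6.61 and 12.8 CPM against 2.20 to 4.62 CPM (1.50, 95% interval 0.89 to 2.12, adjusted p = 0.159; 0.000209 by DESeq2). Group means of Gdf15 ranged from 0.772 to 4.93 CPM over the 37 vehicle groups, with 2.21 CPM in the alpidem study and 3.55 CPM in the zolpidem study.

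**Figure D5:**
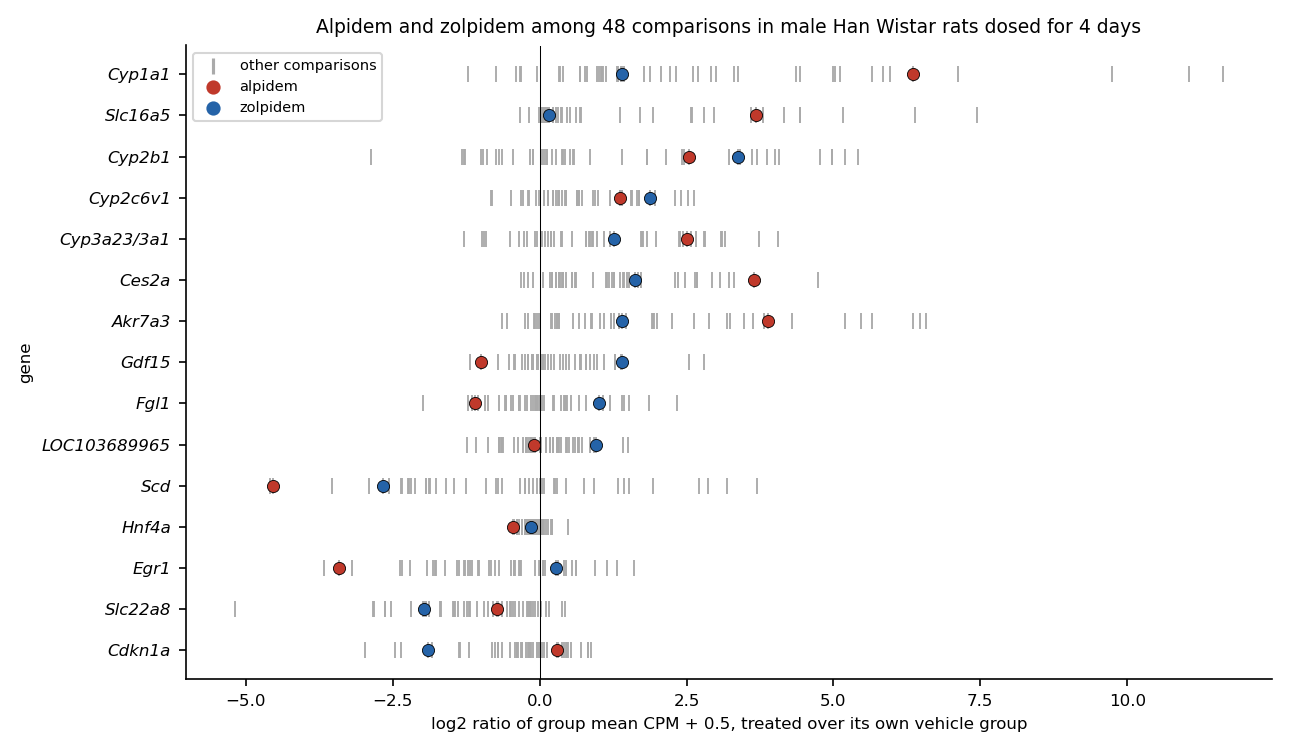
Log2 ratio of group mean CPM plus 0.5, treated over matched vehicle group (x axis), for 15 genes in 48 comparisons; grey ticks are the other treatments, red is alpidem and blue is zolpidem. Alpidem lies at the low end for Scd, Hnf4a and Egr1, and zolpidem lies high for Gdf15 and LOC103689965 while alpidem does not.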

How the data were processed

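Liver RNA from 15 rats was sequenced from stranded mRNA libraries. The authors deposited expected counts per Ensembl gene with symbols, and a second table for RefSeq; the aligner and quantifier are not given in the sources used here, and the submitters' processing notes name the build Rnor_6.0. The deposited expected counts were rounded to whole numbers. Genes were kept by filterByExpr and tested with edgeR 4.0.16 (R 4.3.3; TMM scaling, robust quasi-likelihood F test, Benjamini-Hochberg adjustment), fitting each treated group with its own vehicle group. 95% intervals come from the same fits. DESeq2 1.42.0, other scaling, no filter, the RefSeq table, RIN as a covariate, the other study's vehicle rats and each animal left out were alternatives; flow cell as a covariate was added after seeing the data. The test was checked on simulated counts that held no RIN or flow cell effect, so that check does not cover these differences in the alpidem study. Summed markers and RIN were compared by exact permutation tests.

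Depth was 21.2 to 38.5 M counts per library; depth and the number of animals both limit precision. Replicates are separate animals, and replicate numbers only name them. The members and gene lists were chosen with earlier results of these data known. Of 545 list entries, 512 matched by symbol, 5 by another symbol and 28 did not match; 14 further lists were drawn by symbol pattern. Genes were named by a rule: per comparison, the 12 largest increases and 12 largest decreases among genes that passed, with a mean of at least 5 CPM in the higher group and no overlap between groups; 21 indicator genes; up to 6 called members of each list with at least 3; and genes called in both comparisons. Genes outside it were named after their values were seen, to complete a list or a count. Ranks among treatments used 367 libraries from male Han Wistar rats dosed for 4 days (327 animals), summed per animal, although all groups had been planned. In the deposited tables, 376 library columns of the Ensembl table and 728 of the RefSeq table were not used.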

Additional observations from a re-analysis of the deposited data

Results flagged for a closer look

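In groups of 4 animals, a value was taken as standing apart where its gap to the nearest other animal, over the range of the group, was above the 95% critical value of Dixon's test. Of 215 groups tested over 72 of the genes named in the text, 16 held such a value, and chance gives about 1 in 20 groups. Other genes named in the text, among them Akr1b7, Cyp2c7, Mx1 and Isg15, were not screened in this way. All values are CPM.

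Among alpidem-treated rats, animal 1 stood highest for Cyp2b2, a CAR target (3639, others 1174 to 1344), for Nqo1, a quinone reductase (190.6, others 13.0 to 36.7), and for Dnaja1, a heat shock co-chaperone (278.5, others 187 to 195). Animal 4 stood highest for Ces2j (104.5, others 74.8 to 79.3), and animal 3 for the chaperone Hspa8 (12.2, others 5.97 to 6.58).

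Among the vehicle rats of the alpidem study, animal 3 stood highest for Clec4f (204.0, others 144 to 150), Gdf15 (3.958, others 1.52 to 1.85) and Nr0b2 (155.6, others 63.5 to 74.9). Animal 2 stood highest for Stac3 (46.48, others 7.83 to 8.53), and animal 1 for Gpx2 (0.2948, others 0.178 to 0.196).

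Among the vehicle rats of the zolpidem study, animal 1 stood highest for Egr1 (101.2, others 13.9 to 24.0) and Gpx2 (4.018, others 0.076 to 0.466), and lowest for Tspo (3.267, others 5.39 to 5.59). Animal 2 stood highest for Nr0b2 (146.4, others 39.4 to 56.7). Animal 3 stood highest for Grin2c (1.705, others 0.152 to 0.272) and lowest for Dnaja1 (179.9, others 240.3 to 251).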

How the results depend on the processing

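No paired analysis was possible because the replicate numbers only name the animals within a group. After alpidem the count of 1550 genes became 0 with RIN as a covariate (1864 at an unadjusted p below 0.05), 364 with flow cell as a covariate, and 19 when tested against a minimum log2 fold change of 1; leaving out 1 animal gave 659 to 1314. After zolpidem the count of 8 became 17 in 1 fit of the 4 groups, 164 with DESeq2, 14 with no count filter, 42 with the alpidem study's vehicle rats as controls, and 0 against a minimum log2 fold change of 1 (76 at an unadjusted p below 0.05); leaving out 1 animal gave 0 to 83. The 6 genes called in both in the same direction became 12 in 1 fit of the 4 groups, 80 with DESeq2, 18 with the other study's vehicle rats, 3 with flow cell as a covariate, and 0 with RIN as a covariate or a minimum fold; leaving out 1 animal gave 0 to 33. Over the single genes, 1603 alternative values after alpidem kept their side of the threshold, 628 lost the call and 9 gained it; after zolpidem these were 1811, 55 and 59. No called value of a named gene changed sign under the alternatives run; over all 1550 genes, 2 did so with flow cell as a covariate and 7 with RIN, as did 6 of 1545 against the other vehicle rats. Why counts moved was not tested. The 3 treated zolpidem rats limit that comparison, and 0 counts in single libraries limit folds of low genes such as Slc16a5.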
